A study of Mus musculus with 2 samples.

Results

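A panel of 28 genes for cholesterol synthesis and its control was followed in mouse epidermis after induction of SOX11. The panel held 17 enzymes that build sterols from acetyl-CoA, 5 genes of the sterol sensing system, 2 intracellular sterol carriers and 4 genes of sterol efflux and its nuclear receptors. Members were found by the gene name given on the array, where 40 of 55676 tested probes, under 28 of 34820 names, belonged to them. For genes with several probes the one with the brightest mean of both channels was taken for the summary.

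SOX11 is a DNA-binding protein of the SOXC group, which embryonic epidermis makes and postnatal epidermis does not. Each of 2 arrays set the epidermis of 1 pup with the transgenes K14-rtTA and TRE-Sox11-FLAG against that of 1 littermate with K14-rtTA only, all on the FVB/N strain and at postnatal day 4.5. K14-rtTA drives a doxycycline-dependent activator from the keratin 14 promoter, so that FLAG-tagged SOX11 is made in keratin 14 positive cells and not in every cell of the tissue. Doxycycline (Dox) for 12 h and the activator were shared by both pups of a pair. Control RNA carried Cy3 and RNA of the induced pup Cy5 on both arrays, hence genotype and dye cannot be told apart for any probe. The 2 Sox11 probes (mm9, chr12:28020087-28020146 and chr12:28019541-28019600) were at background in all 4 pups, and they gave no check of the transgene. Both Xist probes were above background in pair 1 only, and Ddx3y and Eif2s3y, which lie on the Y chromosome, in pair 2 only, in both pups each time. The pairs thus differed in these sex-linked genes while the littermates within a pair did not. Keratinocyte markers were present, as 6 of 6 genes (Krt5, Krt14, Krt15, Krt1, Krt10 and Trp63) were above background in all 4 pups. So were the 6 hair shaft and 5 melanocyte markers looked at, and 19095 of 55676 tested probes. Signal above background thus does not single out keratinocytes.

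Cholesterol is made in nearly every cell from acetyl-CoA through mevalonate, squalene and lanosterol, and most enzymes of the route are switched on together by SREBP2, the product of Srebf2. When the membrane of the endoplasmic reticulum holds enough sterol, INSIG proteins keep SCAP and SREBP there and the genes are turned down, while oxysterols activate the LXR receptors (Nr1h2, Nr1h3), which raise efflux genes such as Abca1. In epidermis, cholesterol is a major lipid of the barrier that keratinocytes of the upper layers release, and the synthesis enzymes are active in the keratinocytes themselves and in sebaceous glands.

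The stretch before the start site of 5 enzymes is shown because they include those with the lowest ratios (Mvk, Mvd and Sc4mol) and 2 that changed sign between pairs (Hmgcs1 and Idi1). The letters are from RefSeq on GRCm38.p6, 250 bases each, written 5′ to 3′ on the strand of the gene. Capitals mark CCAAT or its reverse complement ATTGG, the box bound by NF-Y, and in Hmgcs1 also TCACCCCAC, a form of the sterol regulatory element bound by SREBP.
Hmgcs1, chr13:119690101-119690350, plus strand: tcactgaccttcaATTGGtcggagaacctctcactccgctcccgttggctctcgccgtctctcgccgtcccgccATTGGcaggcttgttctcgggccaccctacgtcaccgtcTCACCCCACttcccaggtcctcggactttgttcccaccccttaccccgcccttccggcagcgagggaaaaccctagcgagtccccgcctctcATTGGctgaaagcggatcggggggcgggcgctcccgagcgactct
Mvk, chr5:114444019-114444268, plus strand: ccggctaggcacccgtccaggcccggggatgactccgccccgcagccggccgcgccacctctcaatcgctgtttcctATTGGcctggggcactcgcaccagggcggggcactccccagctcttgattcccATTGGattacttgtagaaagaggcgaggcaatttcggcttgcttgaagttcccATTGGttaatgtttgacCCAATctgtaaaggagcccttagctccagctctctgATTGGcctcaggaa
Idi1, chr13:8885356-8885605, plus strand: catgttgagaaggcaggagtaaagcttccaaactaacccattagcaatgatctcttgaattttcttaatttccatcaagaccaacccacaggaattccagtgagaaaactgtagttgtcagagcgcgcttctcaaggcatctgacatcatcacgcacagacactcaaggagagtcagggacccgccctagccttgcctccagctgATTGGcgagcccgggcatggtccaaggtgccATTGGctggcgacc
Mvd, chr8:122443423-122443672, minus strand: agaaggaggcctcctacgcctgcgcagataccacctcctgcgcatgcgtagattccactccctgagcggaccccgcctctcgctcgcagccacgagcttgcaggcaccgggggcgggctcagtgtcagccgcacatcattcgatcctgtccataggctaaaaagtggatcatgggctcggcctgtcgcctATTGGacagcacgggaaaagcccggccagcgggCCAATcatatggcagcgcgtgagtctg
Msmo1 (Sc4mol), chr8:64733579-64733828, minus strand: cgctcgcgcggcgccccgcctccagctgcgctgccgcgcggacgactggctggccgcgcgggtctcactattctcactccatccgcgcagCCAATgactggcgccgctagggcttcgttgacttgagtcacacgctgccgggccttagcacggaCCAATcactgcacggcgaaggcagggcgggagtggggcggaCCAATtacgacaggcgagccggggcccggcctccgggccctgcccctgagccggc

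Promoters were found for 22 of the 28 genes, 14 of them enzymes, and each gene was counted as holding a motif when at least 1 of its start sites did, on either strand. CCAAT stood before 13 of 14 enzymes and 4 of 8 other members, against 37.5% of 27025 genes and 33.8% of 32851 promoters. GGGCGG, the GC box bound by Sp1 type factors, stood before 13 of 14 enzymes and 6 of 8 other members, against 35.4% of genes and 32.7% of promoters. TCACNCCAC was found for Hmgcs1 alone among the 22, and for 1.22% of genes and 1.05% of promoters. Of 2 short motifs read by SOX proteins, AACAAT stood before 1 of 14 enzymes and 0 of 8 other members, against 10.9% of genes and 9.42% of promoters. ACAAAG, the other, stood before 3 of 14 enzymes and 1 of 8 other members, against 18.6% of genes and 16.5% of promoters. No motif in this search contains another. These are matches of letters in a window and were not tested.

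No member passed the test. At an adjusted p under 0.05 in limma, 0 of 28 members were higher and 0 were lower in SOX11-induced epidermis, where 2.99% of all probes were higher and 1.41% were lower, and 6.78% and 3.21% of those above background. With a normexp offset of 50 or an intensity-trended prior, Mvk and Sc4mol were called lower. Lower calls over all 55676 probes numbered 1555 and 1715 under these settings, against 784 in the fit used here. No member was past 1.5 on the log2 scale, as were 0.453% of all probes (252 of 55676) that also met the adjusted p. Without adjustment, 5 of 28 members had a p under 0.05 in this fit, namely Mvk, Mvd, Sc4mol, Nsdhl and Nr1h3, a share of 17.9%. So did 21.1% of all probes (11722 of 55676) and 31.2% of those above background (6788 of 21782). The median log2 ratio of the members was -0.07, against 0.04 over the 21782 probes above background. Mean log2 ratios of members ran from -0.74 for Mvk to 0.39 for Nsdhl. Of the 28 members, 26 were above background in all 4 pups. The control channel of Srebf1 and the induced channel of Nr1h3 were so on 1 of 2 arrays, and their other channels on both. The 95% intervals of all 28 stayed inside 1.5 in either direction, and those of all but Mvk stayed inside 1. A sum over the tissue such as this cannot tell fewer cells of a type from less RNA per cell.

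**Figure D1:**
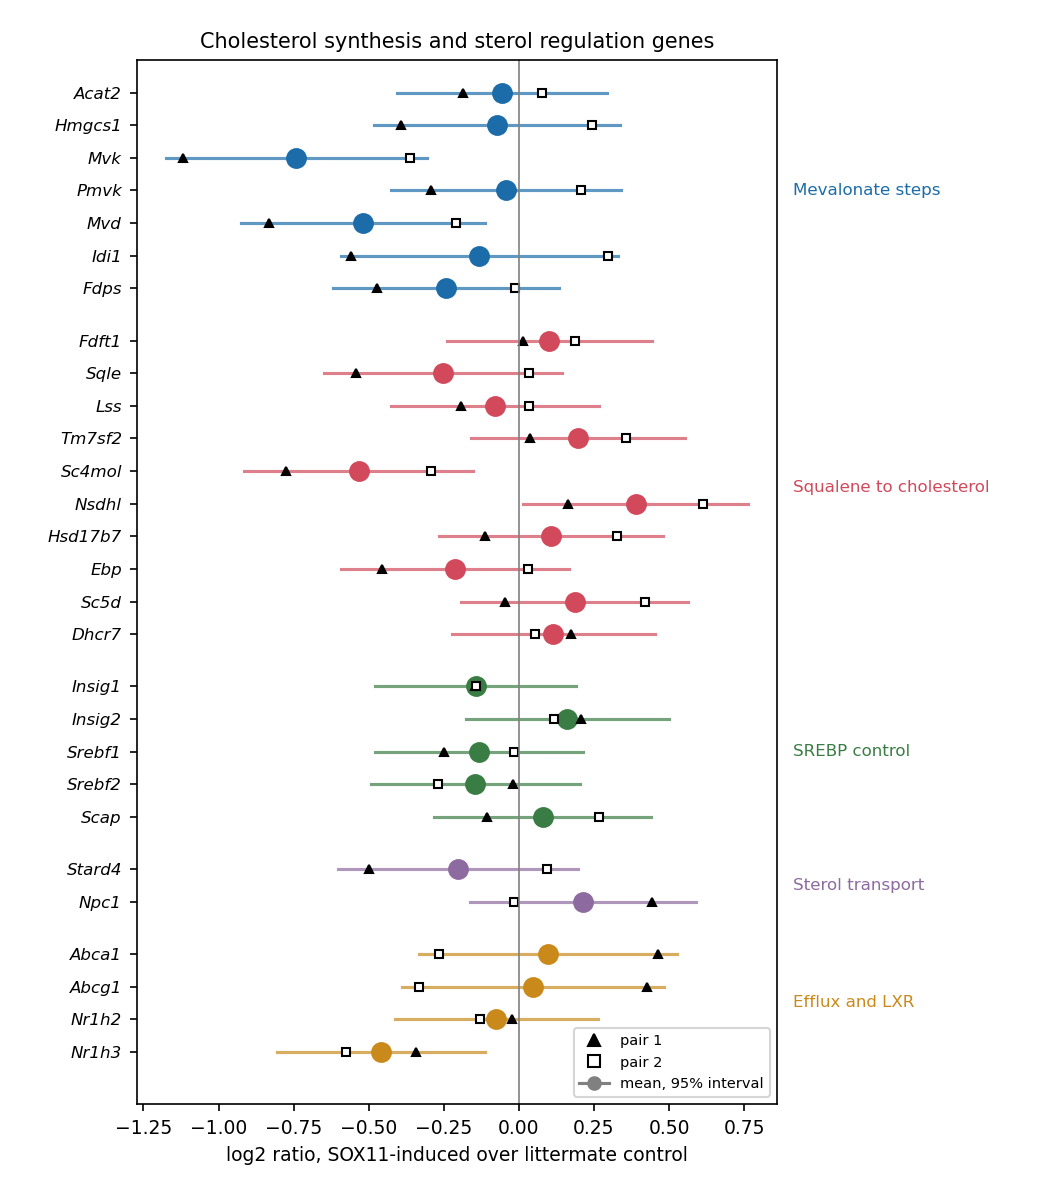
Log2 ratio of SOX11-induced over littermate control epidermis (x axis) for the 28 members (y axis, grouped by role). Triangles are pair 1, squares pair 2, circles the mean, and lines the 95% moderated interval. None of the 28 had an adjusted p under 0.05, and the triangle lies to the left of the square for 16 of 17 enzymes.

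The first steps, from acetyl-CoA to farnesyl diphosphate, were carried by 7 enzymes, all of which lay below 0 in pair 1 and 3 of which did so in pair 2. Their median log2 ratio was -0.47 in pair 1 and 0.08 in pair 2. Mvk, which phosphorylates mevalonate, had the lowest mean ratio of the panel. Its brightest probe (mm9, chr5:114910540-114910599) read 9203 in the control and 4240 in the induced pup of pair 1, and 6180 and 4804 in pair 2, in scanner units after background correction and loess. Both induced pups were dimmer than their littermates. The log2 ratios were -1.12 and -0.36, with a mean of -0.74 ± 0.53 (SD, n = 2), a 95% interval from -1.18 to -0.31 and an adjusted p of 0.0661 in limma. A second Mvk probe gave ratios of -0.88 and -0.37, for a mean of -0.62 at an adjusted p of 0.0773 in limma.

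Mvd, which decarboxylates mevalonate diphosphate, read 1268 in the control and 713 in the induced pup of pair 1, and 747 and 646 in pair 2 (mm9, chr8:124957750-124957809). Again both induced pups were dimmer, with log2 ratios of -0.83 and -0.21, so that the mean was -0.52 ± 0.44 (SD, n = 2; adjusted p = 0.142, limma). Fdps, the farnesyl diphosphate synthase, read 6040 and 4351 in pair 1 but 2800 and 2775 in pair 2. Its ratio of -0.47 in pair 1 thus had next to nothing beside it in pair 2 (-0.01), and the adjusted p of the mean was 0.443 in limma.

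The remaining 4 enzymes of this stretch had opposite signs in the pairs at their brightest probe. Hmgcs1, which makes HMG-CoA, read 12055 in the control and 9182 in the induced pup of pair 1, and 8206 and 9724 in pair 2. The corresponding log2 ratios were -0.39 and 0.24, and the mean was -0.07 ± 0.45 (SD, n = 2; adjusted p = 0.855, limma). Idi1, the isomerase that makes dimethylallyl diphosphate, read 2218 and 1505 in pair 1 and 1283 and 1576 in pair 2, giving log2 ratios of -0.56 and 0.30. Pmvk, which adds a further phosphate after Mvk, had log2 ratios of -0.29 and 0.21, and Acat2, which joins acetyl-CoA units at the start of the route, -0.19 and 0.08. For these 4 genes the mean of the brightest probe lay closer to 0 than either pair did. A dimmer Pmvk probe, above background in all pups, had log2 ratios of -0.46 and -0.02. A dimmer Hmgcs1 probe, not above background in any pup, had -0.41 and -0.10. Both dimmer probes were thus below 0 in each pair.

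Squalene and the sterol rings are made and trimmed by the other 10 enzymes, whose median log2 ratio was -0.08 in pair 1 and 0.12 in pair 2. Sc4mol (now Msmo1), an oxidase that removes methyl groups from early sterols, read 8430 in the control and 4923 in the induced pup of pair 1, and 6521 and 5329 in pair 2 (mm9, chr8:67196982-67197041). It was the only one of the 10 that was dimmer in both induced pups. The log2 ratios were -0.78 and -0.29, with a mean of -0.53 ± 0.34 (SD, n = 2), a 95% interval from -0.91 to -0.15 and an adjusted p of 0.113 in limma.

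Nsdhl, the dehydrogenase that acts after Sc4mol in the same removal, went the other way. It read 299 in the control and 336 in the induced pup of pair 1, and 183 and 280 in pair 2, which gave log2 ratios of 0.16 and 0.61, averaging 0.39 ± 0.32 (SD, n = 2; adjusted p = 0.221, limma). A dimmer Nsdhl probe had a mean of -0.05, so its probes disagreed in sign. The difference between Sc4mol and Nsdhl was not tested.

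Among the others, Sqle, the epoxidase that is a control point of the route, read 9335 and 6414 in pair 1 and 5508 and 5645 in pair 2 (log2 ratios of -0.54 and 0.04). Ebp, a sterol isomerase, had log2 ratios of -0.45 and 0.03, and Lss, which closes the rings to lanosterol, -0.19 and 0.03. These 3 enzymes were dimmer in the induced pup of pair 1 and nearly level in pair 2. Hsd17b7, a ketoreductase, and Sc5d, a desaturase near the end of the route, had -0.11 and 0.33, and -0.05 and 0.42. Fdft1, the squalene synthase (0.01 and 0.19), Tm7sf2, a sterol reductase (0.04 and 0.36), and Dhcr7, the reductase of the last step (0.18 and 0.05), lay above 0 in both pairs by little. The adjusted p of these 8 enzymes ran from 0.450 for Sqle to 0.813 for Lss in limma.

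The enzymes differed between the pairs. Of 17 enzymes, 13 had a log2 ratio below 0 in pair 1 and 4 in pair 2, where 45.5% and 46.6% of the 21782 probes above background did so, and the median of the enzymes was -0.29 in pair 1 and 0.08 in pair 2. The ratio in pair 1 was lower than in pair 2 for 16 of 17 enzymes, with Dhcr7 the exception, and by 0.47 in the median. Over all probes above background this held for 50.1%, and for 49.5% of the 12946 whose brightness lay in the range of the enzymes. The same count of 16 of 17 came out with a normexp offset of 50, median spot brightness, median centring, processed signals, the series table and the mean over the probes of a gene. The share over all probes above background was 61.5% with median centring and 53.1% with processed signals. At the brightness of the enzymes it was 64.2% and 53.9%. With the offset of 50, median spot brightness and the series table, the share above background ran from 49.9% to 51.4%. Under median centring, though, only 3 enzymes stayed below 0 in pair 1 and none in pair 2, as the median of all probes above background moved to 0.51. This count was looked at after the values were seen, the enzymes share their arrays and much of their control, and a pair is 1 sample, so it describes these pairs and was not tested.

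**Figure D2:**
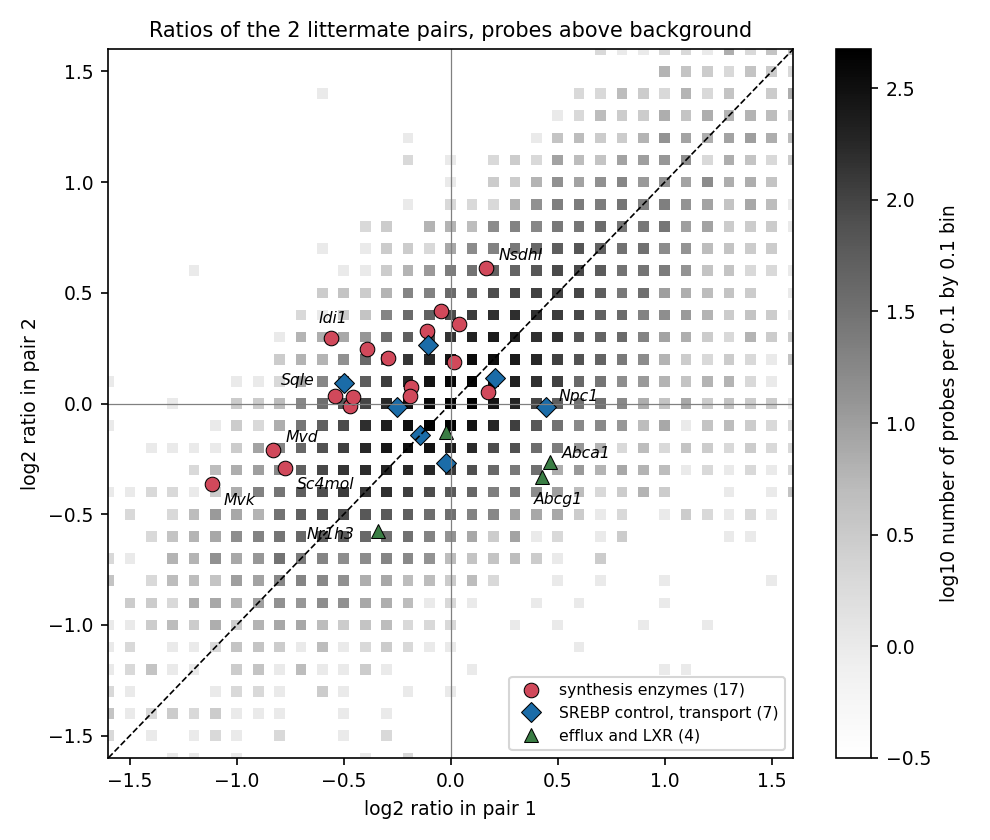
Log2 ratio of SOX11-induced over control epidermis in pair 1 (x axis) against pair 2 (y axis), with members coloured by role over the number of probes above background in each bin in grey (log10 scale). Synthesis enzymes lie above the diagonal in 16 of 17 cases, while the 4 efflux and nuclear receptor genes lie below it.

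The difference between pairs was then followed in the single channels, scaled so that mean brightness had the same distribution on both arrays (Aquantile). The control pup of pair 1 was brighter than the control pup of pair 2 for 17 of 17 enzymes, by 0.73 (log2) in the median, against 0.03 over the probes above background, of which 54.0% were brighter. The induced pup of pair 1 was brighter than that of pair 2 for 16 of 17 enzymes, by 0.28 in the median, against 0.02. The gap was widest between controls for Fdps at 1.37, followed by Idi1 at 1.04, Sqle at 1.03 and Mvd at 1.02, and narrowest for Dhcr7 at 0.14. For Mvk the controls differed by 0.83 and the induced pups by 0.07. Without scaling between arrays the medians of the enzymes were 0.48 between controls and 0.05 between induced pups, against -0.20 and -0.21 over the probes above background. The same control pup stood apart in the hair shaft keratins and in Fabp4. Krt31 of the hair shaft read 4785 in the control and 22203 in the induced pup of pair 1, and 45253 and 40296 in pair 2, and Fabp4 of adipocytes 335 and 1154 in pair 1 and 2655 and 2087 in pair 2, without scaling between arrays. Krt31 and Fabp4 were dimmer in that control pup, where the enzymes were brighter. Cfd, a dimmer adipocyte gene, did not share this, and read 62.0 and 51.8 in pair 1 and 39.6 and 57.1 in pair 2. Other markers set other pups apart. Cd207 of immune cells read 1257 and 1002 in pair 1 and 271 and 244 in pair 2. Cd74, also of immune cells, read 10778 and 8093 in pair 1 and 4362 and 2925 in pair 2. Col1a2 of fibroblasts read 305 and 271 in pair 1 and 314 and 694 in pair 2. The part of these markers in the enzyme values was not tested. In the median the enzymes differed more between the 2 control pups than between the 2 induced pups on either scale, with Dhcr7 the exception (0.14 and 0.26 after scaling). Since a log2 ratio is induced minus control, this restates the lower ratios of pair 1 and is not a further result. Litter, sex-linked genes and array differ together between the pairs and cannot be told apart.

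**Figure D3:**
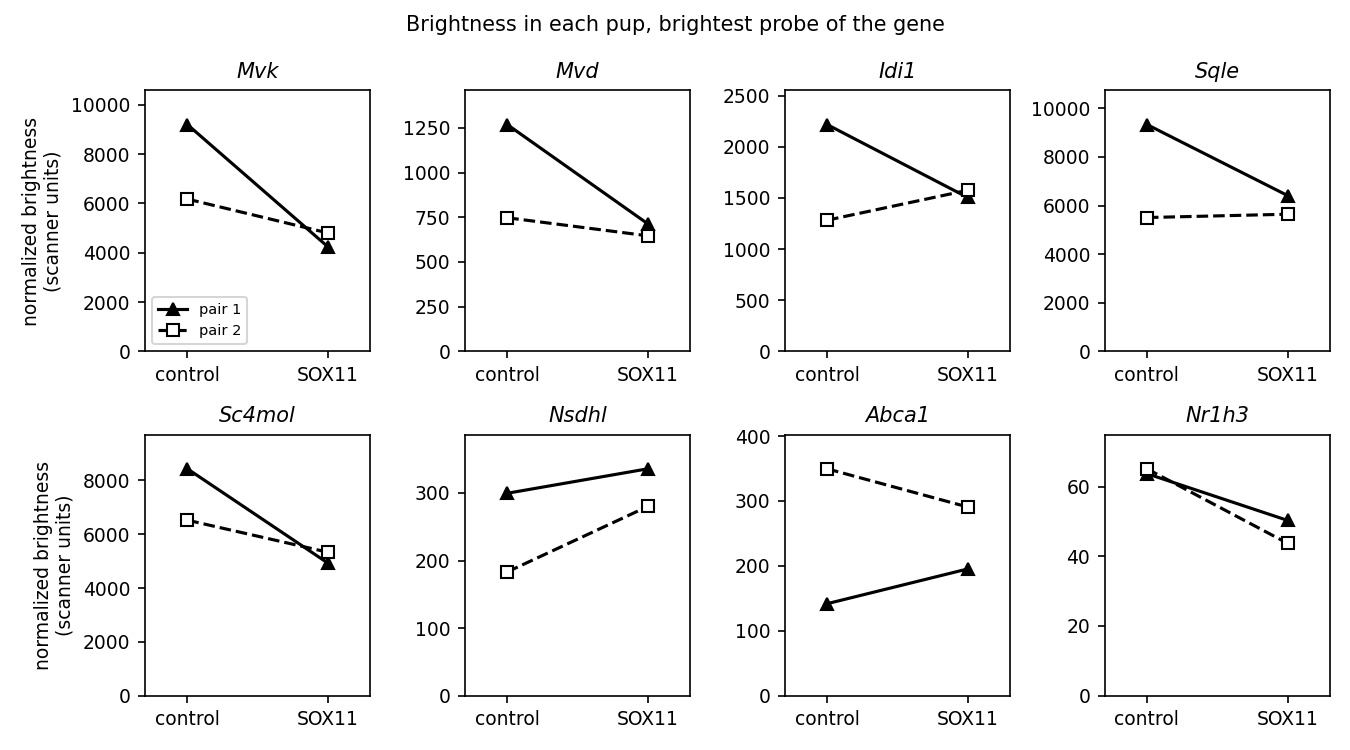
Brightness in each of the 4 pups (y axis, scanner units after normexp and loess, from 0) for 8 members, with a line joining the control and the SOX11-induced pup of a pair. Mvk, Mvd and Sc4mol are dimmer in both induced pups, whereas Idi1 and Sqle are dimmer in pair 1 and slightly brighter in pair 2, and Abca1 the reverse.

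The sterol sensing genes showed smaller ratios. Insig1, an SREBP target whose product holds SCAP back, had nearly equal log2 ratios of -0.15 and -0.14 (adjusted p = 0.625, limma). Srebf2 had log2 ratios of -0.02 and -0.27 at its brighter probe. A dimmer Srebf2 probe, above background in all pups, had -0.07 and 0.06. Scap, the escort of SREBP, had -0.11 and 0.27. Srebf1, the relative of Srebf2 that favours fatty acid genes, had -0.25 and -0.02, but its control channel was above background on 1 of 2 arrays only. The 5 sensing genes ran from -0.15 to 0.16 in mean log2 ratio, with adjusted p values of 0.583 or more in limma.

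Insig2, the second INSIG gene, depended on the probe. The brighter probe (mm9, chr1:123201085-123201144) read 3290 in the control and 3794 in the induced pup of pair 1, and 4025 and 4365 in pair 2, a mean log2 ratio of 0.16 (adjusted p = 0.583, limma). The other probe (chr1:123202133-123202192) read 1374 and 928 in pair 1 and 1502 and 1129 in pair 2, which averaged -0.49 ± 0.11 (SD, n = 2; adjusted p = 0.106, limma). Each probe was of 1 sign in both pairs, and the signs were opposite. Whether the probes read different transcripts was not tested.

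One of the sterol carriers also had probes of opposite sign. Stard4, a soluble carrier of cholesterol, had log2 ratios of -0.50 and 0.09 at its brighter probe and 0.49 and 0.46 at a dimmer one (mean 0.47, adjusted p = 0.111, limma). Npc1, which passes cholesterol out of the lysosome, had log2 ratios of 0.44 and -0.02, with a mean of 0.21 and an adjusted p of 0.507 in limma.

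In the 4 efflux and receptor genes the ratio was lower in pair 2 than in pair 1. Abca1, the transporter that loads cholesterol onto apolipoproteins, read 142 in the control and 195 in the induced pup of pair 1, and 350 and 291 in pair 2. Abcg1, which exports sterol to lipoprotein particles, read 271 and 364 in pair 1 and 675 and 535 in pair 2. Both were thus brighter in the induced pup of pair 1 and dimmer in that of pair 2, with log2 ratios of 0.46 and -0.27 for Abca1 and of 0.43 and -0.33 for Abcg1. Their means of 0.10 ± 0.52 and 0.05 ± 0.54 (SD, n = 2) were far smaller than the spread over pairs. After scaling, the control pup of pair 1 was dimmer than that of pair 2 by -1.07 (log2) for Abca1 and -1.08 for Abcg1, the reverse of the enzymes, and the induced pups differed by -0.34 and -0.32. The other 2 genes of this group did not share this, as Nr1h2 (0.05) and Nr1h3 (0.12) were slightly brighter in the control pup of pair 1.

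Of the LXR receptors, Nr1h2 gave ratios of -0.02 and -0.13, with an adjusted p of 0.816 in limma. Nr1h3 was dim. Its brighter probe (mm9, chr2:91024345-91024404) read 63.7 in the control and 50.3 in the induced pup of pair 1, and 65.1 and 43.7 in pair 2, and the induced channel was above background on 1 of 2 arrays. The mean log2 ratio there was -0.46 ± 0.17 (SD, n = 2; adjusted p = 0.132, limma). The dimmer probe (chr2:91024250-91024309) read 57.8 and 34.4 in pair 1 and 64.6 and 42.4 in pair 2. It was the only one of the 40 probes to pass the test, with log2 ratios of -0.75 and -0.61 and an adjusted p of 0.0383 in limma. Since neither induced pup was well above background there, the change has only a bound, which was at least 1.37-fold lower. The call was lost with median spot brightness (adjusted p = 0.0514, limma), and the adjusted p ran from 0.0121 to 0.258 over the settings tried.

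A further 41 genes of sterol and fatty acid metabolism were set beside the panel. At their brightest probe 2 were higher and 4 were lower at an adjusted p under 0.05 (4.88% and 9.76%), beside 2.99% and 1.41% of all probes and 6.78% and 3.21% of those above background. Their median log2 ratio was -0.07, as in the panel. The 5 further genes of the synthesis route that were looked at did not pass the test. Cyp51, which demethylates lanosterol, read 304 in the control and 259 in the induced pup of pair 1, and 221 and 235 in pair 2, with log2 ratios of -0.23 and 0.09 and a mean of -0.07 at an adjusted p of 0.840 in limma. Its pairs differed in sign, as those of Hmgcs1 and Idi1 did.

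Genes of sterol uptake and lysosomal exit held 2 of the 6 calls. Vldlr, a lipoprotein receptor, read 685 in the control and 347 in the induced pup of pair 1, and 531 and 301 in pair 2, and fell by 0.90 on the log2 scale (SD 0.11, n = 2; adjusted p = 0.0119, limma). A dimmer Vldlr probe, not above background in either induced pup, had a mean of -0.45 (adjusted p = 0.143, limma). Npc2, the lysosomal partner of Npc1, rose. It read 952 and 2465 in pair 1 and 1306 and 2652 in pair 2, a mean log2 ratio of 1.20 ± 0.25 (SD, n = 2; adjusted p = 0.00370, limma). Both induced pups were brighter than their littermates.

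In fatty acid synthesis, Elovl6, which elongates palmitate, fell by 1.02 on the log2 scale (6777 to 3131 in pair 1, 6031 to 3185 in pair 2; adjusted p = 0.00658, limma). Scd2, a stearoyl-CoA desaturase, rose by 1.14 (5674 to 9139 in pair 1, 1861 to 5639 in pair 2; adjusted p = 0.0180, limma). The related Scd1 had a mean of -0.34 and an adjusted p of 0.240 in limma, and it shares much of its sequence with Scd2. Lpcat3, an LXR target that remodels phospholipids, fell by 0.74 with nearly equal ratios in the pairs (-0.73 and -0.75; adjusted p = 0.0262, limma). Mbtps1, the protease that makes the first cut in SREBP, fell by 0.71 at its brightest probe (adjusted p = 0.0314, limma), where a second probe had -0.28 (adjusted p = 0.347, limma). Mbtps2, which makes the cut that follows, had a mean of 0.52 at its brighter probe (adjusted p = 0.0993, limma). The control channel of that probe was above background on 1 of 2 arrays only. A dimmer Mbtps2 probe had a mean of -0.46 (adjusted p = 0.211, limma), so its probes disagreed in sign. With processed signals none of the 6 passed, but neither did any of the 55676 probes. With median centring Npc2 and Scd2 alone passed. That setting called 12123 probes higher and 6362 lower, and moved the median of those above background to 0.51.

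**Figure D4:**
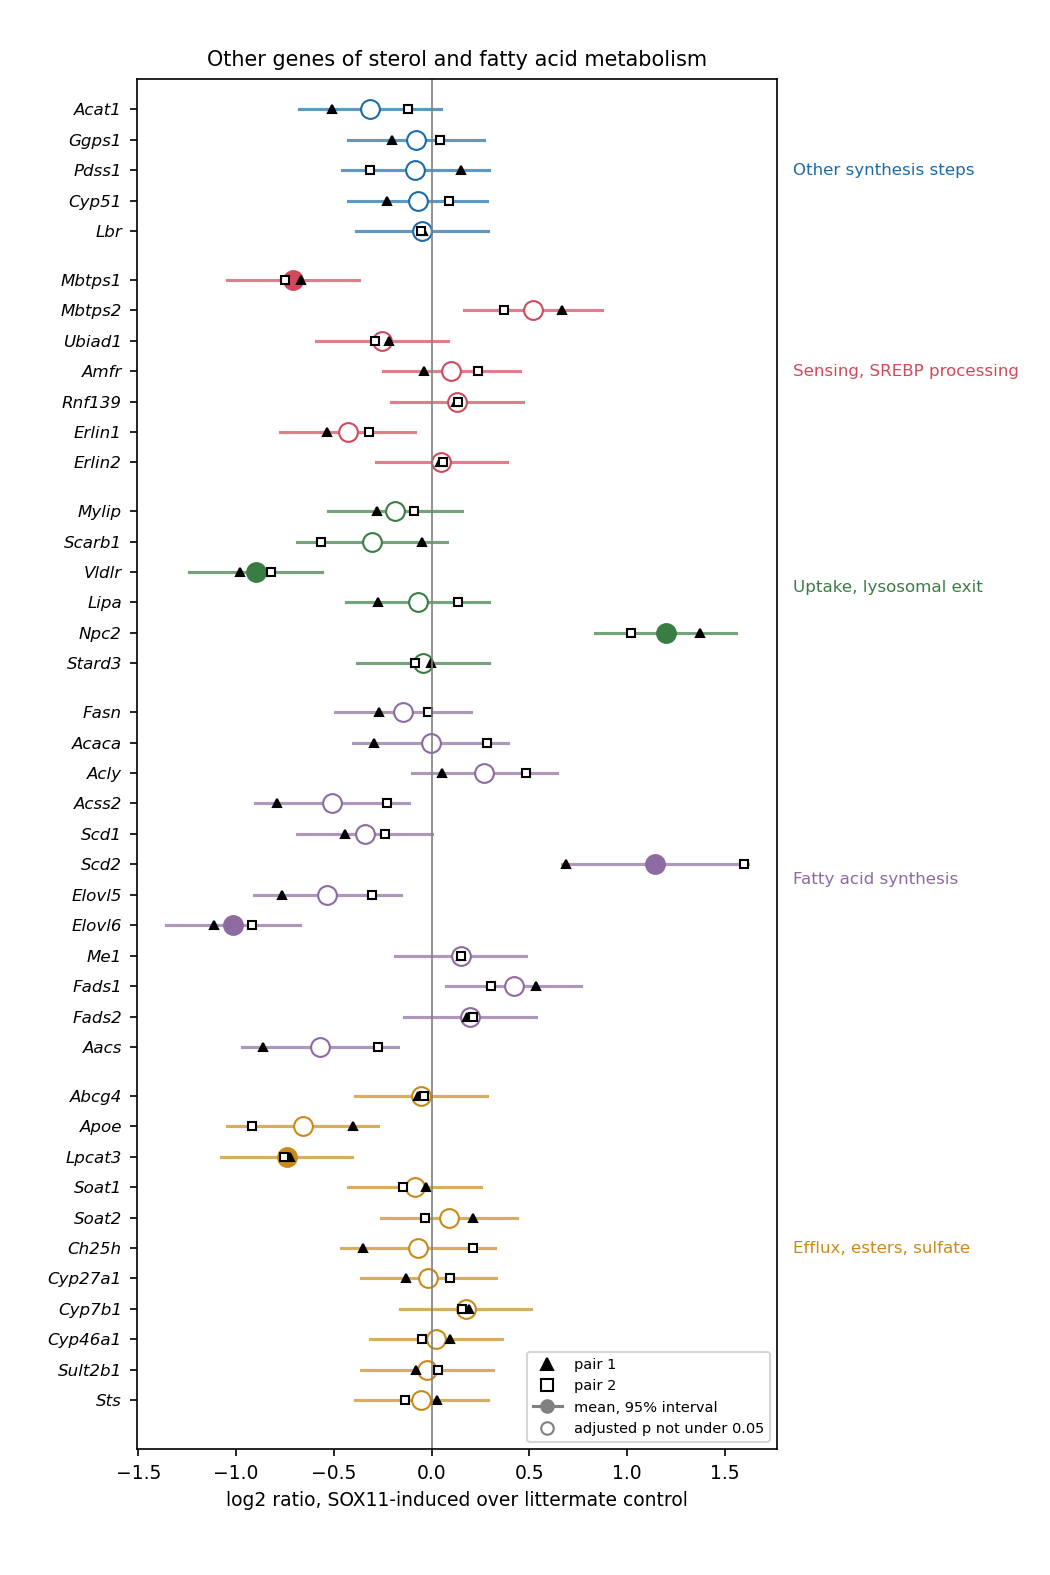
Log2 ratio of SOX11-induced over control epidermis (x axis) for the 41 other genes of sterol and fatty acid metabolism (y axis, grouped by role), with triangles for pair 1, squares for pair 2, circles for the mean and lines for the 95% moderated interval. Filled circles mark the 6 genes with an adjusted p under 0.05, which are Npc2 and Scd2 to the right and Mbtps1, Vldlr, Elovl6 and Lpcat3 to the left.

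Markers of other tissue parts also differed between the pairs. All 6 hair shaft keratins on the list were above background in all pups, with log2 ratios from 1.42 to 2.45 in pair 1 and from -0.45 to -0.08 in pair 2. The 5 melanocyte genes, all above background, had a median of 0.59 in pair 1 and 0.00 in pair 2. Sebaceous gland genes, which could carry sterol enzymes of their own, had a median of 0.12 in pair 1 and -0.16 in pair 2. Of the 8, 3 lay above 0 and 3 below 0 in both pairs. Pparg, a regulator of lipid genes, fell by 0.63 and alone passed (adjusted p = 0.0488, limma). Plin2 and Fabp5 had means of 0.50 and 0.59 (adjusted p of 0.112 and 0.0641, limma). Of 5 adipocyte genes, Adipoq, Plin1 and Lep were not above background in any pup. Fabp4 had log2 ratios of 1.78 and -0.35, and Cfd of -0.26 and 0.53. For fibroblasts, Pdgfra and Lum were not above background, and the 6 genes had medians of -0.10 and 0.50. Dcn fell by 0.79 (adjusted p = 0.0260, limma). Col1a1, Col1a2 and Col3a1 were below 0 in pair 1 and above 0 in pair 2, with means of 0.37, 0.49 and 0.37. In muscle, Ckm, Myh1 and Des were not above background in any pup, and in endothelium Cdh5 and Tie1 were not. The 5 immune cell genes had medians of -0.33 and -0.01. Of the 6 keratinocyte markers, 4 lay below 0 and 2 above 0 in both pairs, with medians of -0.15 and -0.39. Krt15, a keratin of basal cells, fell by 1.03 (adjusted p = 0.00573, limma) and was the only one to pass, while Krt1 and Krt10, keratins of the layers above, had log2 ratios of 0.36 and 0.89 and of 0.23 and 0.94 (adjusted p of 0.0784 and 0.119, limma). The part of these cell types in the ratios of the sterol enzymes was not tested.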

How the data were processed

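RNA of 2 littermate pairs was compared on 2 two-colour Agilent arrays, 1 array a pair. The intensity values deposited in the scanner files are, per the file headers, spot and local background brightness of each channel from Feature Extraction 10.7.3.1, without normalization, with probe positions on mm9. Processed signals in the same files are intensity values that, per the file headers, the software corrected for background and normalized between dyes. The deposited log10 ratio of those signals was not used. The series table deposited by the authors holds log2 ratios, Cy5 over Cy3. These followed log2 ratios computed here from median spot brightness (correlation of 1.00 on both arrays). Log2 ratios computed from mean spot brightness served for every result outside the alternatives. The methods describe a colour swap, which the labels do not show.

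Log2 ratios were obtained with limma 3.58.1 under R 4.3.3. Mean spot and median background brightness were corrected by normexp with an offset of 16, and each array was centred by loess with control spots at weight 0. Control spots and spots with outlier flags (194 and 186) were dropped, spots of a probe averaged, and 55676 probes fitted with an intercept over the 2 log2 ratios, moderated by eBayes (prior with 8.34 degrees of freedom) and adjusted by Benjamini-Hochberg. The pair is therefore part of the fit. Replicates are separate littermate pairs per the labels. An exact sign-flip test of 2 pairs cannot go below p = 0.5, so calls rest on the prior, and the number of arrays limits the precision. A probe was above background in a channel when at least 0.5 of its spots were marked so. Bounds used channels after loess and Aquantile, taking for the dim side the higher of its own signal and the lowest signal well above background; without swapped dyes they are open to dye bias. Promoters came from a RefSeq table (GRCm38.p6). The fit was tested on simulated data.

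Members and lists were chosen with earlier results of these data known. All 28 members are named; of 41 pathway genes, Cyp51 whatever its value and those at an adjusted p under 0.05, at most 12. Some further genes of the pathway are not reported here. Mbtps2, Scd1, the markers and the sex-linked genes were named besides. Alternatives were an offset of 50, median spot brightness, median centring, processed signals, probes above background only, an intensity-trended prior, the series table, the mean over a gene's probes and each pair alone. Chosen after the data were seen were the count of enzymes by pair, the comparison of single channels and the settings of the dimmer Nr1h3 probe.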

Additional observations from a re-analysis of the deposited data

How the results depend on the processing

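The fit is paired, on differences within littermate pairs, so that no second fit with a replicate block was made.

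With 2 pairs the 95% intervals of the members, before any adjustment for the number of probes, reached 0.37 to either side in the median. No member passed with median spot brightness, the series table, probes above background only, processed signals or the mean over probes. With an offset of 50, 2 members were lower (Mvk at an adjusted p of 0.0398 and Sc4mol at 0.0490, limma), and with the intensity-trended prior again 2 (0.00612 and 0.0157, limma). Each pair alone, which allows no test, gave a median log2 ratio of the members from -0.17 to 0.03 and of the pathway genes from -0.077 to -0.038. Pathway genes lower numbered 8 with the trended prior.

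Processed signals called 0 of 55676 probes, hence 0 pathway genes higher and 0 lower, whose median was -0.16; the offset of 50 called 2850 probes higher and 1555 lower, and the trended prior 2968 and 1715. Median centring moved the median of the probes above background from 0.04 to 0.51 and called 12123 higher and 6362 lower. Under it, 15 members were higher with a median of 0.56, and 16 pathway genes were higher and 0 lower with a median of 0.34, all to be read against that shift. Signs turned under it for Acat2 (0.36), Hmgcs1 (0.65), Pmvk (0.67), Mvd (0.075), Idi1 (0.50), Fdps (0.43), Sqle (0.45), Lss (0.46), Sc4mol (0.16), Ebp (0.53), Insig1 (0.36), Srebf1 (0.0050), Srebf2 (0.38), Stard4 (0.44), Nr1h2 (0.60) and Cyp51 (0.43). The mean over probes turned Insig2 (-0.16) and Stard4 (0.14), and processed signals turned Abcg1 (-0.021). The mean over probes ended the call of Mbtps1 (adjusted p = 0.0924, limma). The cause was not tested.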
